A study of Drosophila melanogaster with 4 samples.

Results

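The enriched regions described here are the closely spaced H3K36me2 regions of the *Drosophila melanogaster* autosomes. They lie on 2L, 2R, 3L or 3R, are narrower than 10 kb and are separated from the nearest other enriched region by less than 1000 bp. The authors deposited 1 list per ChIP sample and a further one for the series, the combined list, which holds 4311 regions, of which 3200 are on these 4 arms and 1097 meet all conditions. Members were thus chosen by their measured width and spacing in the combined list, so both quantities are given as a description and nothing is tested on them. The study consists of 2 ChIP samples made with an antibody that the labels call H3K36me2 W and 2 input samples. All come from wild-type Oregon-R embryos of 14 to 16 hours raised in population cages and cross-linked with 1.8% formaldehyde. Each library therefore averages over many embryos and over all the cell types that they contain, and no other genotype, stage or treatment was compared. No region list of an input sample was available, so the lists used here are those of the ChIP samples. The deposited lists give positions on FlyBase release 5 and a score per region but no read counts, so the depth behind every value is unknown. The score was made by the authors and its scale is unknown here, so it serves to describe and rank regions. The labels do not say whether the replicates are separate collections of embryos, and their spread may be technical.

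Dimethylation of lysine 36 of histone H3 is a mark of transcribed chromatin. In *Drosophila* it is laid down by methyltransferases that include Mes-4 and the trithorax-group protein Ash1, while Set2, which travels with elongating RNA polymerase, makes the trimethylated form over gene bodies. Methylation at this lysine is also known to hinder the Polycomb group's methylation of the neighbouring lysine 27. Enriched stretches are commonly broad, and an interval inside such a stretch that misses the caller's threshold divides it into separate regions in a list. No annotation of FlyBase release 5 was used here, so genes and exons at these positions are not named and no sequence is shown.

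Close spacing was frequent on every autosomal arm. Members made up 44.5% of the 2465 autosomal regions narrower than 10 kb and 34.3% of all autosomal regions, and held 4.75 Mb or 20.8% of the enriched autosomal bases. The 2R arm had 289 members, or 13.7 per Mb, and the 2L arm 221, or 9.60 per Mb. The 3L arm had 280 members and the 3R arm 307. When the same conditions were applied to each replicate's own list, 1090 regions qualified in replicate 1 and 1143 in replicate 2, a mean of 1116.5 ± 37.5 (SD, n = 2). Per megabase the extremes were the same arms in both replicates, with 13.2 and 13.9 on 2R and 9.60 and 9.78 on 2L. As a share of all regions of an arm, members were most frequent on 3L in all 3 lists (35.97% in replicate 1, 38.8% in replicate 2 and 35.4% in the combined list), against 35.4%, 36.4% and 35.3% on 2R. The 3L and 3R arms, at 12.1 ± 0.864 and 11.1 ± 0.152 per Mb (SD, n = 2), differed by about the spread between the 3L values, which were 11.5 and 12.7.

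**Figure D1:**
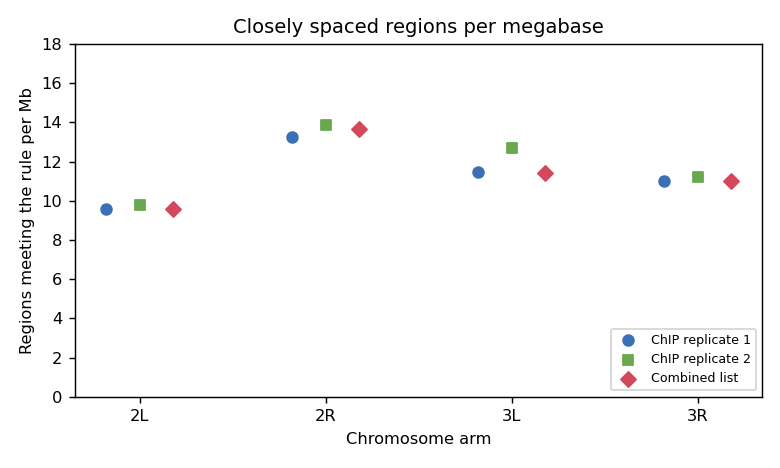
Number of closely spaced regions under 10 kb per megabase of each autosomal arm (vertical axis, starting at 0), with 1 point for each ChIP replicate's own list and 1 for the combined list. All 3 lists have their highest value on 2R (13.2 to 13.9 per Mb) and their lowest on 2L (9.60 to 9.78 per Mb).

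Members occurred in every full megabase of the 4 arms, from 2 to 26 per bin with a median of 11 over 95 bins. The fullest bins were 3R 1000001 to 2000000 with 26, 2R 8000001 to 9000000 with 25, 2L 10000001 to 11000000 with 22 and, with 19 each, 3L 3000001 to 4000000 and 3L 19000001 to 20000000. Applied to the replicate lists, the rule counted 16 and 26 regions in the 3R bin, 30 and 27 in the 2R bin, 25 and 31 in the 2L bin 17 and 17 in the first 3L bin and 26 and 24 in the second (replicates 1 and 2). In the 3R bin replicate 1 thus counted fewer than the other lists. Across the 95 bins the correlation of these counts between replicates was 0.811 (Pearson) and 0.787 (Spearman). Bins holding more enriched regions of any kind also held more members (Spearman correlation 0.740), members being part of that total, and the bins share libraries and arms.

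The members were mostly arranged in pairs. Regions linked by gaps of less than 1000 bp were joined into runs, and 570 runs contained members. A run held 2 regions in 421 cases, 3 in 109, 4 in 30 and 5 in 8, and there were single runs of 7 and 11 regions. Regions of 10 kb or more took part in 225 of these runs, while 345 (60.5%) consisted of members alone. The runs spanned a median of 13768 bp (quartiles 8494.5 and 20081.5, longest 59373 bp) and were enriched over a median of 96.6% of their span. Although each member is narrower than 10 kb, 156 of the 345 runs without a wide region spanned 10 kb or more. Together the runs extended over 9.08 Mb, which is 9.40% of the 4 arms.

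The run with the most members lay at 2L 10244356 to 10291516. It held 11 members in 47161 bp, 43035 of them enriched. Replicate 1 overlapped 9 of its members and replicate 2 overlapped 10. Its highest score belonged to 2L 10250170 to 10256186, which replicate 1 scored at 1.64, replicate 2 at 1.57 and the combined list at 1.59. This region was divided from its left neighbour, which scored 0.733 in replicate 1, 0.804 in replicate 2 and 0.712 in the combined list, by a gap of 35 bp. The lowest score of the run, 0.116, was that of 2L 10277584 to 10279080, which replicate 1 lacked and replicate 2 scored at 0.371. The member 2L 10256650 to 10257770, of 1121 bp, was found in neither replicate. The strong members were thus called in both replicates at similar scores, and the members missing from a replicate were the 2 with the lowest combined scores.

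The next run, 3L 224788 to 270132, held 7 members, of which replicate 1 overlapped 6 and replicate 2 overlapped 5. Its members 3L 247990 to 257932 and 3L 257954 to 267822, of 9943 and 9869 bp, were 21 bp apart. The first scored 1.45 in replicate 1 and 1.39 in replicate 2 and was 1 region in each. The second was met by 2 regions in each replicate, at a highest score of 1.12 and 0.999. Its narrowest member, 3L 238732 to 240106, was in neither replicate. The only run of 5 members, 3R 2888640 to 2915098, was present in full in both replicates. A further 17 runs held 4 members, of which 12 were present in full in both. The longest by span were 3R 20039566 to 20085180 and 3L 12725656 to 12766740, each with 4 members and a wide region and each complete in both replicates.

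**Figure D2:**
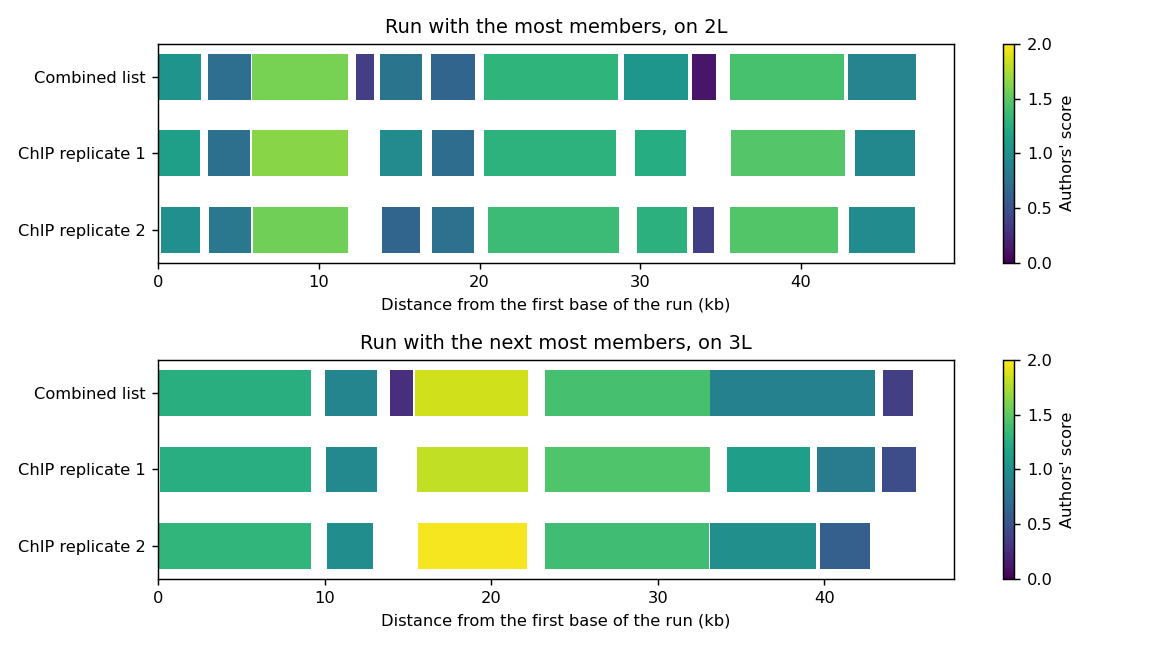
Maps of the runs with 11 and 7 members, drawn to scale from the first base of each run (horizontal axis, kb), with bars for enriched regions of the combined list and of each ChIP replicate coloured by the authors' score. In the upper map the combined list has 11 bars, replicate 1 has 9 and replicate 2 has 10, and in the lower map they have 7, 7 and 6. The 21 bp gap of the lower map is too narrow to be seen at this scale.

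The members were linked by 760 close gaps, 506 between 2 members and 254 between a member and a region of 10 kb or more. Wide regions were common neighbours, 234 of the 735 autosomal regions of 10 kb or more (31.8%) having a member beside them. Counting neighbours of any width, 296 of the 735 (40.3%) had a gap under 1000 bp, against 44.5% of autosomal regions under 10 kb. Close spacing was thus nearly as frequent among wide regions. Most members (928) had a close neighbour on 1 side, and 169 members (15.4%) had one on both sides. Gaps had a median of 363 bp in the combined list (quartiles 171 and 619.5), and 112 (14.7%) were under 100 bp. In the narrowest case, 3R 18936854 to 18954244, the neighbours shared their boundary base. Gaps of 1 bp stood within 2L 15063944 to 15072098, 3L 11514540 to 11520196 and 3L 12489588 to 12508544, and one of 3 bp within 2R 13722902 to 13730310. The widest gap, of 991 bp, lay in 3L 240204 to 257932, followed by 989 bp in 2R 13740664 to 13757068 and by 4 gaps of 987 bp, in 2R 5281324 to 5290752, 2R 12068000 to 12074060, 3L 5594586 to 5601556 and 3R 16443208 to 16454912.

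Of the 2 regions beside a gap, the narrower had the lower combined score in 633 of 759 pairs of unequal width (83.4%), with a median score of 0.730 for the narrower and 1.47 for the wider. Between members the share was 81.6%, and beside wide regions, where the rule fixes which is narrower, 87.0%. Score and width were correlated over all members (Spearman correlation 0.802), and no value for other pairs was computed. The Spearman correlation between the scores of left and right regions was 0.0519 over 505 pairs of members. Over 254 pairs of a member and a wide region it was -0.349, and a region can appear in more than 1 pair. In the latter pairs the wide region, on either side, mostly scored higher (median 1.78 against 1.01 for the member). A negative value is thus built into these pairs and says nothing about neighbouring scores.

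Most gaps of the combined list were also gaps in the replicates. A gap was called open in a replicate when both its flanking regions were overlapped and at least 1 of its bases was outside the replicate's regions. This held for 629 of 760 gaps in replicate 1, or 82.8% (Wilson 95% interval 79.9 to 85.3), and for 593 in replicate 2, or 78.0% (74.9 to 80.8), a mean of 80.4% ± 3.35 (SD, n = 2). A replicate region ran through the whole gap in 12 cases in replicate 1 (1.58%, interval 0.905 to 2.74) and in 6 cases in replicate 2 (0.789%, interval 0.362 to 1.71). These intervals cover counting error and treat neighbouring gaps as independent. Gap-facing replicate boundaries lay inside the combined region at 80.9% (replicate 1) and 91.9% (replicate 2) of members' boundaries. A gap with both flanks overlapped could therefore seldom be bridged, and the open share mostly reflects whether both flanks were found. The combined list may also have been made from the replicates, so these shares are a description. All but 2 of the bridged gaps of replicate 1 and 1 of those of replicate 2 measured 100 bp or less in the combined list.

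In the remaining cases, 118 in replicate 1 and 160 in replicate 2, a flanking region had no counterpart. The missing flank was usually narrow and low in score. Where 1 flank was missing, it had a median combined width of 1263 bp and score of 0.362 in replicate 1, beside partners of 5549 bp and 1.18. In replicate 2 the missing flanks had 1469 bp and 0.364, beside partners of 5763 bp and 1.23. The narrowest region in the list of replicate 1 was 1301 bp, so its median missing flank was narrower than any region it held. Gaps beside a wide region were open in 87.2% ± 3.06 (SD, n = 2), and gaps between members in 77.0% ± 3.49 (SD, n = 2). Every wide region was overlapped in both replicates, so a gap beside one could lack its member flank only. A higher open share beside wide regions is therefore built into the definition. By arm the mean share ranged from 75.5% ± 2.37 on 2L to 85.2% ± 2.24 on 3L (SD, n = 2).

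**Figure D3:**
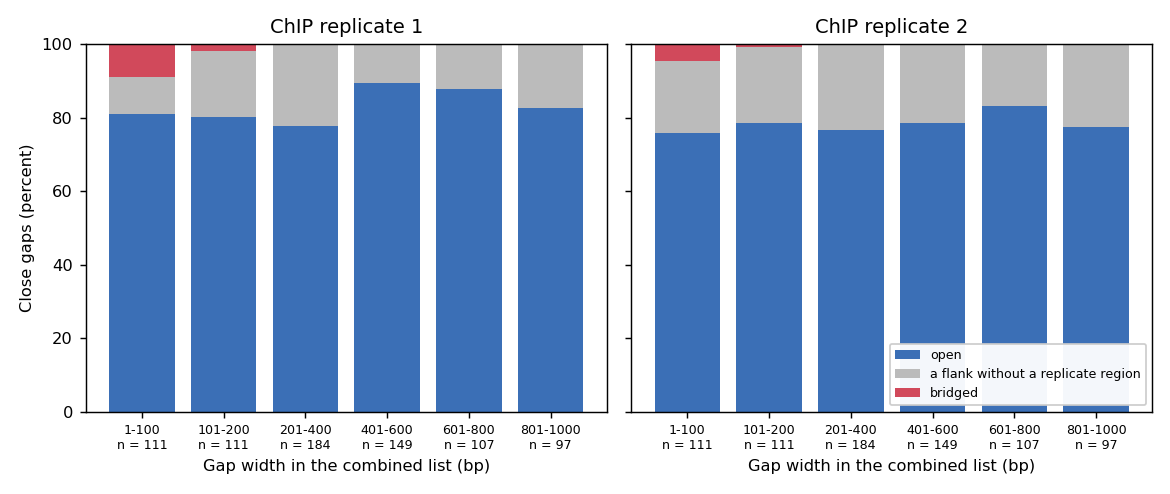
State of the close gaps in each ChIP replicate (percent of gaps, stacked) by gap width in the combined list, with the number of gaps under each bar. The gap with a shared boundary base is left out. Open gaps make up 77.7% to 89.3% of each width class in replicate 1 and 75.7% to 83.2% in replicate 2, and bridged gaps appear in the classes up to 200 bp.

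The replicates gave the same answer for most gaps. Both were open at 566 of the 760 gaps (74.5%) and both lacked a flank at 94. Replicate 1 alone was open at 63 and replicate 2 alone at 27. No gap was bridged in both replicates. Among gaps open in replicate 2 and not in replicate 1, those with the highest summed scores lay in 2R 12917380 to 12953638, 2L 7188994 to 7196922 and 3L 21604838 to 21613478. The first lacked a flank in replicate 1, and the other 2, of 71 and 35 bp, were bridged there. Among gaps open in replicate 1 alone they lay in 2R 1855272 to 1872750, 2L 3310324 to 3320614 and 2L 8031524 to 8074414. Each of these 3 joined a region scoring 0.287 to 0.492 to one scoring 2.18 to 2.27, and the weaker had no counterpart in replicate 2.

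Gaps were wider in the replicates than in the combined list. At the 566 gaps open in both, the median width was 564 bp in replicate 1 and 633.5 bp in replicate 2, a mean of 598.75 bp ± 49.1 (SD, n = 2), against 370 bp in the combined list. The gap was wider than in the combined list at 522 of the 566 in replicate 1 and at 555 in replicate 2. The rule caps the combined width at 1000 bp but not the widths in the replicates, which reached 3698 and 3311 bp. The gap stayed under 1000 bp at 490 of 566 (86.6%) in replicate 1 and at 442 (78.1%) in replicate 2. Between the replicates the widths differed by a median of 128 bp, were within 100 bp at 224 gaps (39.6%), and were greater in replicate 2 at 385 (68.0%). Across gaps their correlation was 0.741 (Spearman) and 0.611 (Pearson).

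**Figure D4:**
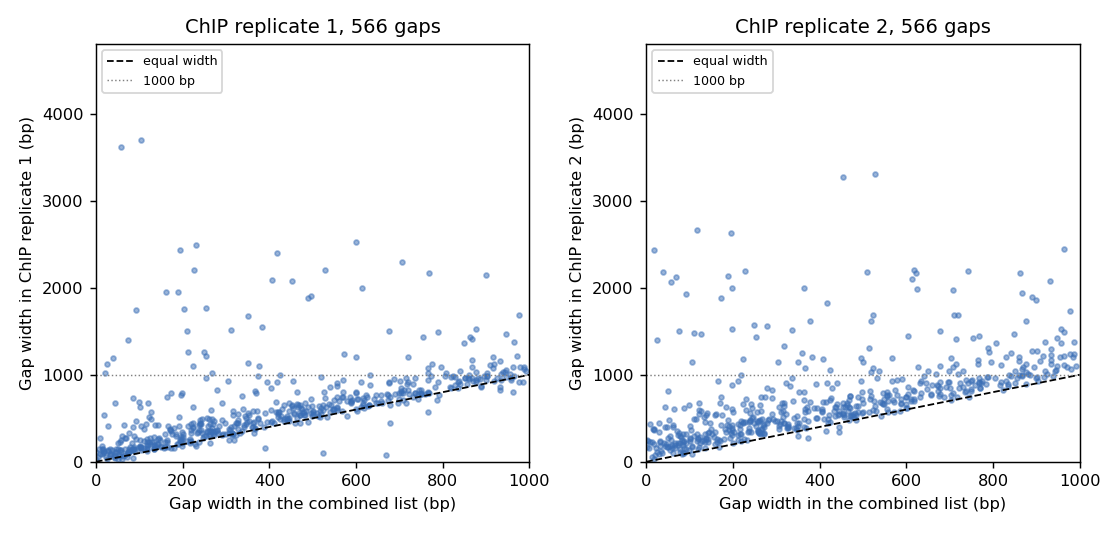
Width of each of the 566 gaps open in both ChIP replicates (vertical axis, bp) against its width in the combined list (horizontal axis, bp). The dashed line marks equal width and the dotted line 1000 bp, and 522 points in replicate 1 and 555 in replicate 2 lie above the dashed line.

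Boundaries beside a close gap were placed somewhat less reproducibly than other boundaries of members, and about as reproducibly as those of isolated regions. Those facing a close gap differed between replicates by a median of 89 bp (1068 boundaries), against 77 bp for those facing a gap of 1000 bp or more (787 boundaries). Boundaries of isolated regions under 10 kb differed by 88 bp. The replicates were within 100 bp at 55.0% of members' gap-facing boundaries and 61.0% of their other boundaries. For isolated regions this share was 55.4%. The replicate boundary lay inside the combined region at 80.9% of members' gap-facing boundaries in replicate 1 and at 91.9% in replicate 2. At members' other boundaries these shares were 84.4% and 92.6%. The median outward shift from the combined boundary was -42 bp in replicate 1 and -85 bp in replicate 2 beside a close gap, and -36 and -83 bp elsewhere, negative values lying inside the combined region.

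Close gaps taken from a replicate's own list were more often bridged in the other lists. The rule applied to replicate 1 gave 741 close gaps, of which 585 (78.9%) were open in replicate 2, 98 (13.2%) were bridged there and 55 (7.42%) lacked a flank. Of the 776 close gaps of replicate 2, 536 (69.1%) were open in replicate 1, 214 (27.6%) were bridged and 25 (3.22%) lacked a flank. In the combined list, 547 of the replicate 1 gaps (73.8%) were open and 191 (25.8%) bridged, while 472 of the replicate 2 gaps (60.8%) were open and 303 (39.0%) bridged, and none lacked a flank. The few gaps not listed had no base between their flanks. Bridging in a replicate thus met 0.789% to 1.58% of the gaps of the combined list, and 13.2% to 27.6% of the gaps of the other replicate. Members of replicate 1 overlapped a member of replicate 2 in 821 of 1090 cases (75.3%), and 848 of the 1143 members of replicate 2 (74.2%) overlapped one of replicate 1. Of the 1097 combined members, 806 (73.5%) overlapped a member of replicate 1 and 699 (63.7%) one of replicate 2. A further 183 and 248 overlapped isolated regions alone.

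As regions, most members were found in both replicates. Replicate 1 overlapped 991 of 1097 (90.3%, Wilson 95% interval 88.4 to 91.9) and replicate 2 overlapped 948 (86.4%, interval 84.3 to 88.3), a mean of 88.4% ± 2.77 (SD, n = 2). The intervals treat neighbouring members as independent. Because the combined list may have been made from the replicates, these shares are a description and no independent support for the members. Both replicates overlapped 928 members (84.6%), replicate 1 alone 63, replicate 2 alone 20 and neither 86 (7.84%). Members in neither were narrow, with medians of 1231 bp and a combined score of 0.373, against 4296 bp and 1.10 for members in both. The narrowest region was 1301 bp in the list of replicate 1 and 1302 bp in that of replicate 2. The median member in neither was thus narrower than any replicate region. Whether its absence goes with this width limit or with its score was not tested. All 384 members of 5 kb or more were overlapped in both replicates, and of those under 2.5 kb 60.5% ± 7.39 (SD, n = 2). In the lowest quintile of members by combined score, 127 of 220 were overlapped in replicate 1 and 92 of 220 in replicate 2. From the middle quintile upward the shares were 99.5% to 100%.

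Scores of members recurred between replicates. At the 855 members met by exactly 1 region in each, the absolute score difference had a median of 0.0749 and a 95th percentile of 0.241. The correlation was 0.969 (Pearson) and 0.966 (Spearman) across members, which share libraries with their neighbours. The largest difference, -1.15 (replicate 1 minus replicate 2), was at 2L 15504598 to 15506410, with 0.463 in replicate 1 and 1.62 in replicate 2. The replicate 2 region there covered 2.32% of the member, whose nearest gap was 17 bp, so its score belongs mostly to the neighbouring region. At 2L 7194676 to 7196922 the scores were 1.41 and 0.493 and at 3L 16405502 to 16407832 they were 0.714 and 1.40 (replicates 1 and 2), with gaps of 71 and 35 bp. The next were 3R 20057022 to 20059484, with 1.24 and 0.757, and 3L 22704938 to 22707572, with 1.35 and 0.883.

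The highest combined score among members, 3.30, was that of 3L 23568776 to 23569780, a region of 1005 bp in neither replicate. Isolated regions had the same maximum, 3.30, and wide regions reached 3.07. The other 4 of the 5 highest-scoring members were 6711 to 9161 bp wide and were covered to at least 96.3% in both replicates. They were 3L 8465480 to 8474640, which replicate 1 scored at 2.92, replicate 2 at 3.03 and the combined list at 2.95, and 3R 19173228 to 19181922, with 2.92, 3.03 and 2.93 in the same order. They also included 2R 19283444 to 19290308, with 2.94, 2.87 and 2.90, and 2R 9341654 to 9348364, with 2.73, 2.88 and 2.76. The 5 lowest, between 0.00601 and 0.0640, were 3R 6136354 to 6137850, 3L 19254100 to 19255836, 2R 13586384 to 13587846, 2R 15295014 to 15296556 and 2R 5762494 to 5764204. They were 1463 to 1737 bp wide, replicate 1 overlapped all 5, and replicate 2 overlapped those on 3L and at 2R 5762494. The 3L region, 41 bp from its neighbour, was met by 2 regions in replicate 1, with a highest score of 1.48, and by 1 in replicate 2, with 0.191. It is outside the 855 members compared between replicates above because it met more than 1 region.

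Closely spaced members resembled the 1368 isolated regions under 10 kb, whose nearest gap was 1000 bp or more. Median widths were 3751 bp for members and 3869 bp for isolated regions. Median scores were 1.12 for members and 1.12 for isolated regions in replicate 1, and 1.13 and 1.12 in replicate 2. Members minus isolated regions, taken within each replicate, gave 0.00479 and 0.00409, a mean of 0.00444 ± 0.000498 (SD, n = 2). The sign changed with width. Under 2.5 kb the differences were -0.00426 in replicate 1 and -0.0156 in replicate 2. They were 0.0287 and 0.0239 at 2.5 to 5 kb, and 0.00448 and -0.00276 at 5 to 10 kb. These differences are small beside the range of member scores, whose quartiles in the combined list were 0.510 and 1.41. Members were overlapped in 90.3% and isolated regions in 87.6% of cases in replicate 1, and in 86.4% and 85.0% in replicate 2, differences of 2.69 and 1.40 percentage points. Below 2.5 kb the shares were 65.7% for members and 57.1% for isolated regions in replicate 1, a difference of 8.58 points. In replicate 2 they were 55.2% and 48.9%, a difference of 6.28 points. An overlap needed 1 shared base, so a close neighbour's replicate region could count for a member and lend its score. Isolated regions had no neighbour closer than 1000 bp. Part of the excess of members may thus be built into the definition, and its size was not tested. Wider regions had higher scores in both classes, with a Spearman correlation of 0.802 across members and 0.794 across isolated regions. The classes were cut from the measured list, so none of these differences was tested.

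Members stood below the 735 autosomal regions of 10 kb or more. Median scores were 1.12 for members and 1.81 for wide regions in replicate 1, a difference of -0.693, and 1.13 and 1.80 in replicate 2, a difference of -0.671. Members were overlapped in 88.4% ± 2.77 (SD, n = 2) of cases, and all wide regions were overlapped in both replicates. The replicate medians leave out members without a counterpart, whose combined scores were mostly low. Those in neither replicate had a median of 0.373, although the member with the highest combined score was among them. Over all regions the median combined score was 0.967 for members, 0.949 for isolated regions and 1.74 for wide regions, the difference from wide regions being -0.775. Members next to wide regions alone, 190 in number, had a median width of 3931 bp and scores of 1.21 in replicate 1 and 1.24 in replicate 2. The 58 members next to both a member and a wide region had 3139 bp and scores of 1.03 and 1.06, and the 849 next to other members alone had 3753 bp and scores of 1.11 and 1.12.

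**Figure D5:**
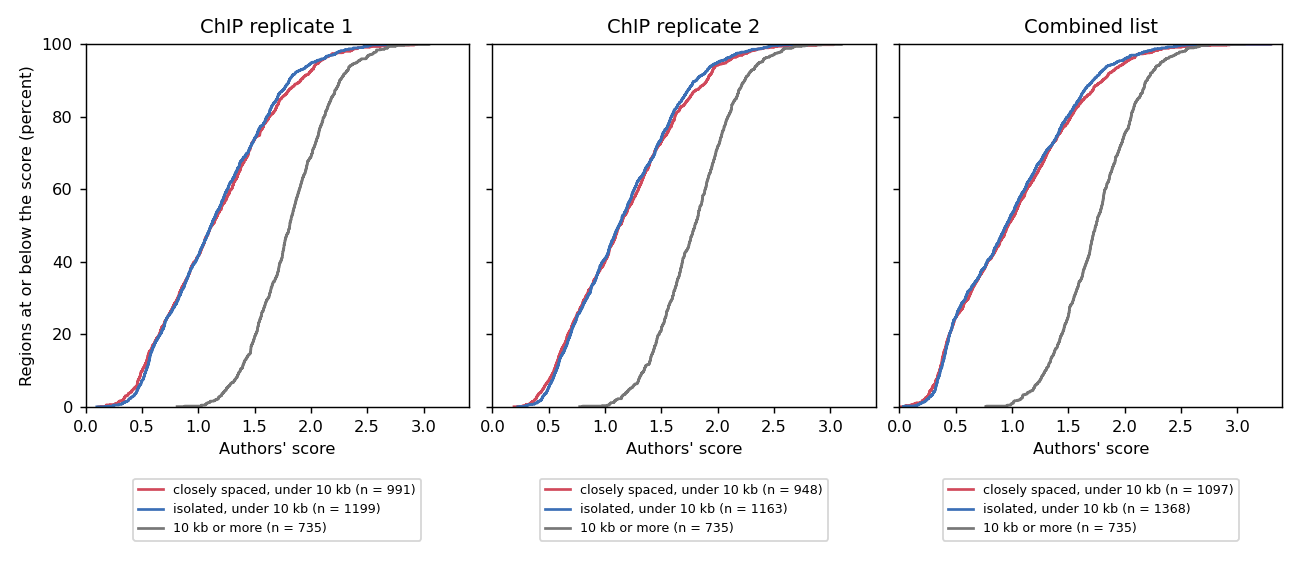
Cumulative share of regions (percent) at or below each score of the authors, in ChIP replicate 1, ChIP replicate 2 and the combined list, for closely spaced regions under 10 kb, isolated regions under 10 kb and regions of 10 kb or more. For the replicates the score is the highest among overlapping replicate regions. The curves of closely spaced and isolated regions nearly coincide, and that of wide regions lies at higher scores.

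The limits of the rule cut through a continuous range. In the combined list 108 autosomal gaps measured from 800 to under 1000 bp and 81 from 1000 to under 1200 bp. Just inside the gap limit stood 2R 13740664 to 13742174 at 989 bp, which neither replicate held, and 2R 5281324 to 5287966 and 2R 5288954 to 5290752, both at 987 bp. Just outside were 3L 3454318 to 3460940 and 3L 3461942 to 3471746, 1001 bp apart, and 3R 22767622 to 22769836 at 1003 bp. The widest members were 2R 10381448 to 10391442, 3R 7702880 to 7712864 and 3L 8454966 to 8464946, of 9995, 9985 and 9981 bp, with combined scores of 2.06, 1.80 and 2.12. The narrowest closely spaced regions beyond the width limit were 2R 11545430 to 11555432 and 3R 12971430 to 12981432, both of 10003 bp, and 3R 1020232 to 1030260 of 10029 bp, with scores of 1.39, 1.59 and 1.38.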

How the data were processed

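The submitters' processing notes list Bowtie 0.12.7 for alignment, and the file headers name FlyBase release 5 as the build. Each deposited list gives start, end and a score per enriched region. How the authors computed this score, called regions and combined the replicates is not given in the sources used here. Positions were read 1-based, as deposited. A region counted as overlapped at 1 shared base, and the replicate score of a region was the highest among those overlapping it. Values are means ± SD over 2 ChIP replicates. Since the classes were cut from the measured list, no test was run. Wilson 95% intervals cover counting error only. Members, run and gap definitions and the rules for named regions (extremes of run size, score, gap width and replicate difference, and the neighbours of each limit) were chosen with earlier results of these data known. Run, gap and state assignment was checked on simulated lists and returned the planted states. Alternatives covered the width and gap limits, the score, the overlap, each replicate left out and the list that defines members. The lists hold no read counts, so sampling noise between the libraries was not assessed; they differ in boundaries and scores and were counted as 2 samples. The software was matplotlib 3.10.9, scipy 1.17.1, pandas 2.3.3 and numpy 2.4.6 under Python 3.11.15.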

Additional observations from a re-analysis of the deposited data

How the results depend on the processing

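With a width limit of 5000 bp there were 713 members, 82.1% were overlapped and 75.8% of gaps were open. The median replicate score was then 0.852 and the median width 2675 bp. With 20000 bp the score was 1.30 and the width 4599 bp. Width follows the limit by construction, and score was correlated with width across members (Spearman correlation 0.802). Gap limits of 500 and 2000 bp gave 751 and 1457 members, against 1097, in 416 and 690 runs, against 570. They moved the score from 1.123 to 1.118 and 1.129. Keeping regions above the median score of their list left 243 members in 161 runs, with 85% of gaps open, a score of 1.65 and a width of 5919 bp. Requiring 50 percent of a region to be covered gave a score of 1.128. Members defined in the replicate lists were overlapped by the other replicate in 96.8%, with 74.0% of gaps open, a score of 1.144 and a width of 3934.25 bp. Combined regions of 1301 bp or more, the least width in a replicate, an alternative chosen after seeing the data, were overlapped in 92.9%, with 87.6% of gaps open, a score of 1.137 and a width of 3961 bp. Other values moved by less than the spread between replicates, or by less than 1.5 times for counts. Without replicate 1 or replicate 2 the share overlapped was 86.4% or 90.3%, the share of gaps open 78.0% or 82.8% and the score 1.126 or 1.121. No paired analysis was possible because the lists used here are those of the ChIP samples, which form a single group. Depth is unknown.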

Other observations

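All 4311 starts and all 4311 ends of the combined list are even numbers, while 2108 of 4133 starts in replicate 1 and 2100 of 4231 in replicate 2 are even. Every gap and width of the combined list is therefore an odd number of bases, and gap widths differ in steps of 2 bp. The narrowest regions were 1001 bp in the combined list, 1301 bp in replicate 1 and 1302 bp in replicate 2. Members narrower than 1301 bp numbered 56 (5.10%), and isolated regions so narrow 61 (4.46%). An exact score shared with another combined region was found at 32 members (2.92%) and 42 isolated regions (3.07%).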
